A study of Mus musculus with 28 samples.

Results

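The heat shock chaperone genes described here are 10 mouse genes, taken by symbol from the 36806 genes (33411 distinct symbols) listed in each of the 6 deposited expression tables. Each symbol matched 1 row per table. They encode the inducible Hsp70 proteins (Hspa1a, Hspa1b), the constitutive Hsp70 (Hspa8), the Hsp110 nucleotide exchange factor (Hsph1), the inducible and the constitutive cytosolic Hsp90 (Hsp90aa1, Hsp90ab1), the J-domain partners of Hsp70 (Dnaja1, Dnajb1) and the mitochondrial chaperonin with its lid (Hspd1, Hspe1). RNA came from macrophages grown from the bone marrow of FVB/Hsd mice for 7 days, which carried a retroviral hairpin or a control vector under puromycin selection. Values are FPKM (sequenced fragments divided by transcript length and by library size), which allow levels of genes of different length to be set side by side within a library.

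The hairpins were sh1137 against Wdr82, hairpins against Set1a and Set1b together, and a hairpin labelled as directed against Pnuts. Controls carried LMP, the empty vector, in 3 Wdr82 sets (unstranded, stranded and polyA). They carried a scrambled hairpin in the Set1a+Set1b set, the Pnuts set and the Wdr82 set with DRB. Cells were treated with 10 ng/ml of lipopolysaccharide (LPS, from the outer membrane of Gram-negative bacteria) or left untreated. The LPS times in the sample titles were 45 min, 2 h and 4 h in the unstranded set, 1 h in the stranded set, 4 h in the polyA set and 45 min in the other 3 sets. The treatment protocol in the labels names 4 h only, and the titles were followed for the times given here. In the DRB set every library was LPS-treated and 1 library of each vector also received DRB, which blocks elongation by RNA polymerase II. Newly made RNA was labelled with 4-thiouridine (4sU) for 45 min, except in the polyA set, which held polyA-selected RNA. By their titles the polyA libraries were unstranded too. All 28 libraries came from virus-infected, selected cells, and each condition had 1 library per set.

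When proteins unfold, the heat shock factor HSF1 forms trimers and binds heat shock elements, which are runs of inverted nGAAn units in the promoters of chaperone genes. Hsp70 with its J-domain partners binds exposed hydrophobic stretches and releases them in cycles driven by ATP, and Hsp90 matures signalling proteins, among them kinases and receptors that macrophages use. The chaperonin pair folds proteins inside mitochondria.

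Upstream sequences were available in RefSeq (GRCm38.p6) for 7 of the 10 genes, and those of 4 genes are shown together with the Hspd1 to Hspe1 element. Only sequences that hold a heat shock element are shown, and windows without one are left out. The part of the element in the LPS response was not tested. Each of the first 4 sequences holds the 250 bases before a transcription start, 5′ to 3′ on the gene's strand. Capitals mark a 2-unit heat shock element, spelled GAANNTTC or TTCNNGAA; each spelling reads the same on both strands. Hspa1a lies at chr17:34972157-34972406 (minus strand) and Hspa1b at chr17:34959239-34959488 (minus strand). Hsph1 lies at chr5:149636337-149636586 (minus strand) and Dnaja1 at chr4:40722218-40722467 (plus strand). The Hspd1 to Hspe1 sequence, chr1:55088053-55088082 (plus strand), lies between the nearest start sites of these divergent genes.
Hspa1a: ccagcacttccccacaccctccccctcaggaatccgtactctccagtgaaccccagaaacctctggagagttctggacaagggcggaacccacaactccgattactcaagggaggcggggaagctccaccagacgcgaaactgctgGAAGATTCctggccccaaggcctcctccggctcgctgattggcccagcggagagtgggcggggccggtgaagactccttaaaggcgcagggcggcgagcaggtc
Hspa1b: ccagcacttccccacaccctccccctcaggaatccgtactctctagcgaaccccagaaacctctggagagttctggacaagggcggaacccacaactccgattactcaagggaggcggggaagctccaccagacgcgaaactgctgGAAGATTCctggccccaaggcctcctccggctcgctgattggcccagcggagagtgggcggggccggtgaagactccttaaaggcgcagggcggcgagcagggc
Hsph1: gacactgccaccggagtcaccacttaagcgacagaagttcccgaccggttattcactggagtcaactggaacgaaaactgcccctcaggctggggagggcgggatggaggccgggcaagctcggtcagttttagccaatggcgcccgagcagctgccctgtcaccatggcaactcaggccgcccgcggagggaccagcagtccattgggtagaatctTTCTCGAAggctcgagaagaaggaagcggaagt
Dnaja1: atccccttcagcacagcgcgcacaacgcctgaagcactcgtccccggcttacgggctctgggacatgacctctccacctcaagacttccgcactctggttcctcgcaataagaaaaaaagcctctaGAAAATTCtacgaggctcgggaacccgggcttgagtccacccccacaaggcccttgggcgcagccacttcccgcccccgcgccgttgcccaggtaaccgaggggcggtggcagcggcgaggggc
Hspd1 to Hspe1: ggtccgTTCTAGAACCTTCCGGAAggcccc

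The upstream bases of Hspa1a and Hspa1b were identical at 247 of 250 positions, and GAAGATTC stood 104 to 97 bases before the start in both. The 7 genes with an entry had 12 windows, and a gene counted if any of its windows matched. By this rule the 2-unit element occurred in 6 of the 7, against 14.5% of all 27025 genes in the table. These 6 are not separate occurrences. The Hspa1a and Hspa1b windows are near-identical, and overlapping Hspd1 and Hspe1 windows count the same bases. The 3-unit element, GAANNTTCNNGAA or TTCNNGAANNTTC, occurred only in Hspd1 and Hspe1 among the 7, in the same run of bases, and in 0.514% of all genes. In the 215 bases between the Hspd1 and Hspe1 starts, TTCTAGAA, GAACCTTC and TTCCGGAA overlapped in a run of 18 bases. No match was found in either Dnajb1 window, in the other Dnaja1 windows or in the other Hspd1 window. This says only that these letters are not in these windows.

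In the deposited tables (mm9, per the submitters' processing notes) Hspa1a (ENSMUSG00000091971) spanned chr17:35106143-35109069 and Hspa1b (ENSMUSG00000090877) chr17:35093942-35096181. Reads from these near-identical genes may have been split between them by the authors' counting, so their values are not independent and each is uncertain. Hspd1 and Hspe1 shared 1 merged locus, chr1:55134678-55148151. The Dnaja1 locus, chr4:40667186-40704956, also held Smu1, Gm6297 and Mir207, and the Hspa8 locus, chr9:40609066-40613283, held Snord14c, Snord14d and Snord14e. Reads of overlapping genes cannot be told apart with certainty in unstranded libraries. The loci of Hsph1 (chr5:150416861-150438951), Hsp90aa1 (chr12:111928814-111940938), Hsp90ab1 (chr17:45704723-45710220) and Dnajb1 (chr8:86132073-86135801) held no other listed gene.

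The libraries expressed macrophage genes: 8 of the 9 measured macrophage markers reached 1 FPKM in every library, and their sum ranged from 1943 to 12338 FPKM. Neutrophil markers summed to 3.80 to 85.0 FPKM, with Ly6g and Elane below 1 FPKM everywhere, and lymphocyte markers to 2.12 to 115 FPKM, with Cd3e, Cd3g and Ms4a1 below 1 FPKM everywhere. Erythroid markers reached at most 5.25 FPKM, mast cell and basophil markers 0.896 FPKM and stromal markers 11.2 FPKM. In bulk RNA, fewer cells of a type and less RNA per cell cannot be told apart. Within a set, the deepest library had from 1.59 times (Set1a+Set1b) to 3.34 times (polyA) the depth of the shallowest. Wdr82 was lower in the sh1137 library of all 10 pairs (log2 ratio -2.23 to -0.72). In the Set1a+Set1b set the log2 ratios of Setd1a were -0.11 untreated and -0.40 at 45 min and those of Setd1b 0.06 and -0.58, short of a 2-fold difference. Ppp1r10, which encodes Pnuts, was higher in the libraries labelled Pnuts sh (0.68 and 0.70), so these are named by their label only.

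Levels differed widely among the 10 genes. In untreated LMP cells of the unstranded set, Hsp90ab1 stood at 189 FPKM, Hspa8 at 77.7, Hsp90aa1 at 64.4, Hspd1 at 49.9, Hspe1 at 19.2, Dnajb1 at 18.0, Dnaja1 at 16.5 and Hsph1 at 8.62 FPKM. Hspa1b and Hspa1a followed at 0.585 and 0.524 FPKM. The deposited confidence bounds of neighbours in this order overlapped, except between Hsph1 and Hspa1b. In polyA RNA of untreated LMP cells all neighbours overlapped, and Hsp90ab1 (269 FPKM) again stood first, with Hspa1b (2.32 FPKM) and Hspa1a (1.42 FPKM) last. Over all 28 libraries Hspa1a ranged from 0.297 to 20.2 FPKM (median 2.28) and was at least 1 FPKM in 22, and Hspa1b ranged from 0.585 to 24.3 FPKM (median 3.46) and was at least 1 FPKM in 24. The other 8 genes exceeded 1 FPKM in every library. Hspe1 ranged from 13.9 to 38.7 FPKM and Dnajb1 from 9.08 to 29.0 FPKM.

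The first comparison asked how the genes answered LPS in cells without a targeting hairpin. After 45 min of LPS, newly made Hspa1a, Hspa1b, Hspa8 and Hsp90aa1 RNA rose in control macrophages, while the other 6 genes did not pass the test. Ratios were taken within a table as log2((FPKM + 1)/(FPKM + 1)), a scale that understates changes of low genes. The unstranded, Set1a+Set1b and Pnuts sets each gave 1 control ratio, and limma was fitted to the 3 ratios across 12228 genes, with an adjusted p under 0.05 as the call. It called 4 of the 10 genes higher and 0 lower, against 14.9% of all tested genes higher and 9.82% lower. Over all genes 1822 were higher and 1201 lower; with each ratio centred on its median gene these were 1323 and 1476, and the same number of the 10 genes, 4, was higher. The median of the 10 ratios was 0.21, and that of all genes 0.07. Of the genes called, Hspa1a and Hspa1b passed the filter of 1 FPKM through their LPS-treated libraries alone in some sets.

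Hspa1a stood at 3.81, 4.48 and 5.86 FPKM at 45 min in the unstranded, Set1a+Set1b and Pnuts sets, against 0.524, 0.869 and 2.12 FPKM in the untreated controls. All 3 treated values lay above all 3 untreated ones. Its mean log2 ratio was 1.45 ± 0.16 (SE, 3 sets, higher in 3 of 3, limma adjusted p = 0.00584). This is 2.73-fold of FPKM + 1, less than the fold of FPKM itself. Hspa1b stood at 5.15, 5.13 and 7.27 FPKM, against 0.585, 1.66 and 3.12 FPKM untreated, again without overlap. Its mean was 1.39 ± 0.22 (SE, 3 sets; limma adjusted p = 0.0143), and without the Set1a+Set1b set it did not pass (adjusted p = 0.0528).

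Hspa8, the Hsp70 that unstressed cells use, had 150 FPKM, 286 FPKM and 361 FPKM at 45 min, against 77.7, 152 and 174 FPKM untreated. The groups overlapped between sets, but the ratio was steady within them: its mean was 0.96 ± 0.06 (SE, 3 sets; limma adjusted p = 0.00146). Hsp90aa1, the inducible Hsp90, had 127, 160 and 141 FPKM at 45 min, against 64.4, 97.1 and 82.8 FPKM untreated, with every treated value above every untreated one. Its mean was 0.82 ± 0.08 (SE, 3 sets; limma adjusted p = 0.00389). Hsp90ab1, its constitutive counterpart, was higher in 3 of 3 sets by a mean of 0.26 ± 0.07 (SE), which did not pass (limma adjusted p = 0.0539). It passed when the hairpin and control ratios of each set were averaged (adjusted p = 0.0223).

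The remaining genes varied between sets. Hspd1 had log2 ratios of -0.47, 0.06 and 0.87 in the unstranded, Set1a+Set1b and Pnuts sets (mean 0.15 ± 0.26 SE, 3 sets; limma adjusted p = 0.68). Hspe1, its partner, had a mean of -0.06 (adjusted p = 0.589). Dnajb1, a J-domain protein that is heat-inducible in many cells, had a mean of -0.01 (adjusted p = 0.976), Dnaja1 of 0.09 (adjusted p = 0.502) and Hsph1 of 0.14 (adjusted p = 0.41).

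**Figure D1:**
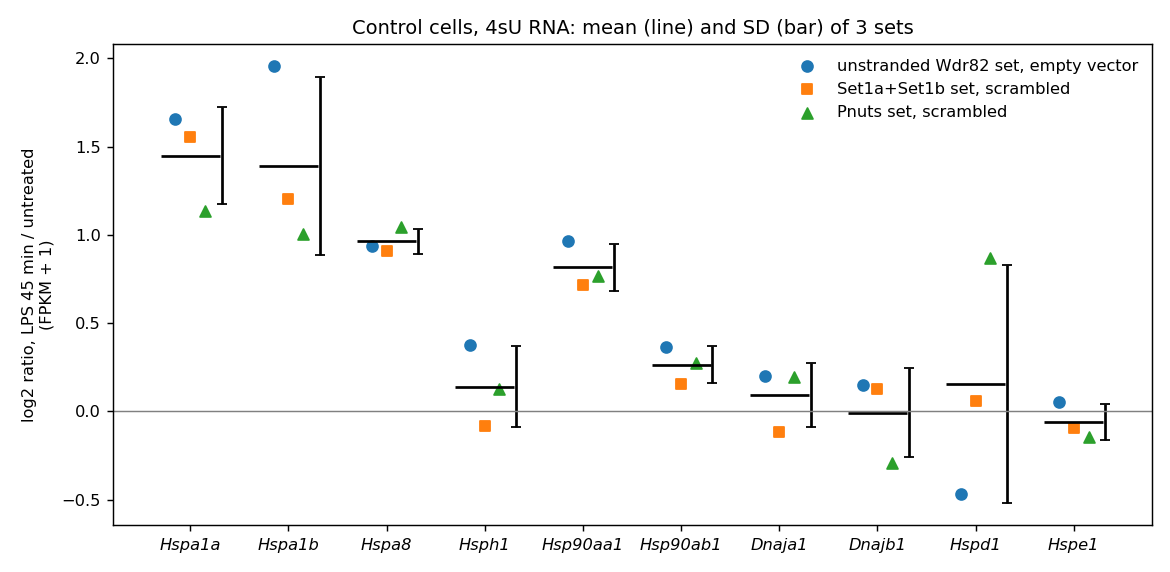
Log2 ratio of FPKM + 1 at 45 min of LPS over untreated control cells (vertical axis) for each gene (horizontal axis); points are the 3 sets, lines their mean and bars 1 SD. Hspa1a, Hspa1b, Hspa8 and Hsp90aa1 lie at 0.72 or more in every set, while Hspd1 spans -0.47 to 0.87.

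Among the other chaperone genes, the same fit called some members of most lists, where 14.9% of all tested genes were higher and 9.82% lower. Of 16 tested other Hsp70, Hsp110 and J-domain genes 7 were higher and 1 lower. The J-domain genes Dnajb4 (1.75, limma adjusted p = 0.000852), Dnaja2 (1.23, adjusted p = 0.00164) and Dnajb6 (0.90, adjusted p = 0.0116) led, while Dnajc7 fell by 0.55. Of 20 tested co-chaperones 5 were higher, namely Stip1, the adaptor that joins Hsp70 to Hsp90 (0.65, adjusted p = 0.00868), Ptges3, the Hsp90 co-chaperone p23 (0.50), Sugt1 (0.39), Bag6 (0.31) and Ahsa1 (0.26). Bag4 fell by 0.66. Of 8 subunits of the CCT chaperonin, which folds actin and tubulin, 4 were higher (Cct2 0.46, Tcp1 0.45, Cct8 0.44 and Cct5 0.31). Of 14 tested ER genes 4 were higher. They were Herpud1, which is not itself a chaperone (1.42), Hspa5, the ER Hsp70 (1.08, limma adjusted p = 0.00259), Dnajb9 (0.71) and Canx (0.25). Of 8 mitochondrial genes none was higher and Grpel2 fell by 0.90; the 1 tested small heat shock gene, Hspb6, fell by 0.65. The heat shock factor list had 3 tested genes: Hsf1, Hsf2 and Hsbp1, which encodes a protein that binds such factors. None of them passed (Hsf1 mean 0.13, limma adjusted p = 0.423). These limma values are log2 ratios over the 3 control sets, and the list medians ran from -0.65 (the single small heat shock gene) to 0.30 (CCT), against 0.07 for all genes.

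The time course of the unstranded set separated an early, a later and a declining pattern. These single pairs of libraries carry no test. Here and below, a difference is counted from 2-fold of FPKM + 1 on, so a low gene can double in FPKM without being counted. In sh1137 cells 3 of the 10 genes were at least 2-fold higher at 45 min (8.71% of all genes), 3 at 2 h (13.1%) and 1 of the 9 tested at 4 h (21.1%). In LMP cells 2 were higher at 45 min (5.96%), 2 at 2 h (11.5%) and 2 at 4 h (20.3%), when 1 was at least 2-fold lower (11.3% of all genes). At 4 h these shares were no larger than those of all genes, and the median gene itself was 0.17 (sh1137) and 0.19 (LMP) higher at 4 h on the log2 scale.

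Hspa1b, at untreated, 45 min, 2 h and 4 h, had 0.614, 2.29, 4.17 and 1.47 FPKM in sh1137 cells, against 0.585, 5.15, 8.24 and 2.19 FPKM in LMP cells. Hspa1a had 0.311, 2.20, 2.64 and 0.851 FPKM in sh1137 cells, against 0.524, 3.81, 3.95 and 1.57 FPKM in LMP cells. Both were highest at 2 h with either vector, and lower with sh1137 at every LPS time. The deposited bounds at 45 min and 2 h overlapped for both genes with either vector. For Hspa1a in LMP cells these values were close (bounds 0.899 to 6.69 FPKM at 45 min and 0.938 to 6.92 FPKM at 2 h). Hspa8 peaked earlier, with 59.7, 138, 58.9 and 47.7 FPKM in sh1137 cells, against 77.7, 150, 72.9 and 47.5 FPKM in LMP cells.

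Hsp90aa1 also stood highest at 45 min, with 42.8, 68.1, 56.1 and 41.2 FPKM in sh1137 cells, against 64.4, 127, 79.7 and 72.4 FPKM in LMP cells. Dnaja1 increased with each time instead, with 14.3, 21.3, 37.5 and 39.4 FPKM in sh1137 cells, against 16.5, 19.1, 31.6 and 43.0 FPKM in LMP cells. Its deposited bounds at 4 h were wide, 0.663 to 91.9 FPKM in sh1137 cells and 0.875 to 99.3 FPKM in LMP cells. The set is unstranded, and the Dnaja1 locus also held Smu1. At 4 h the Dnaja1 log2 ratio to untreated was 1.40 in sh1137 cells and 1.33 in LMP cells, and 1.23 and 1.15 relative to the median gene. Hspd1 went the other way at later times, with 34.0, 34.5, 18.6 and 21.9 FPKM in sh1137 cells, against 49.9, 35.8, 35.9 and 22.7 FPKM in LMP cells. Its 4 h ratio in LMP cells, -1.11, was the single LPS value at least 2-fold lower.

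Dnajb1 and Hspe1 stayed within narrow bands. Dnajb1 ranged from 14.7 to 15.2 FPKM in sh1137 cells, against 17.2 to 20.1 FPKM in LMP cells. Hspe1 ranged from 13.9 to 18.5 FPKM in sh1137 cells, against 18.5 to 19.9 FPKM in LMP cells. Hsp90ab1 was highest at 2 h with either vector (209 FPKM in sh1137 cells, 292 FPKM in LMP cells), and Hsph1 at 2 h stood at 5.70 FPKM in sh1137 cells and 7.76 FPKM in LMP cells, below its untreated values of 7.54 and 8.62 FPKM.

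**Figure D2:**
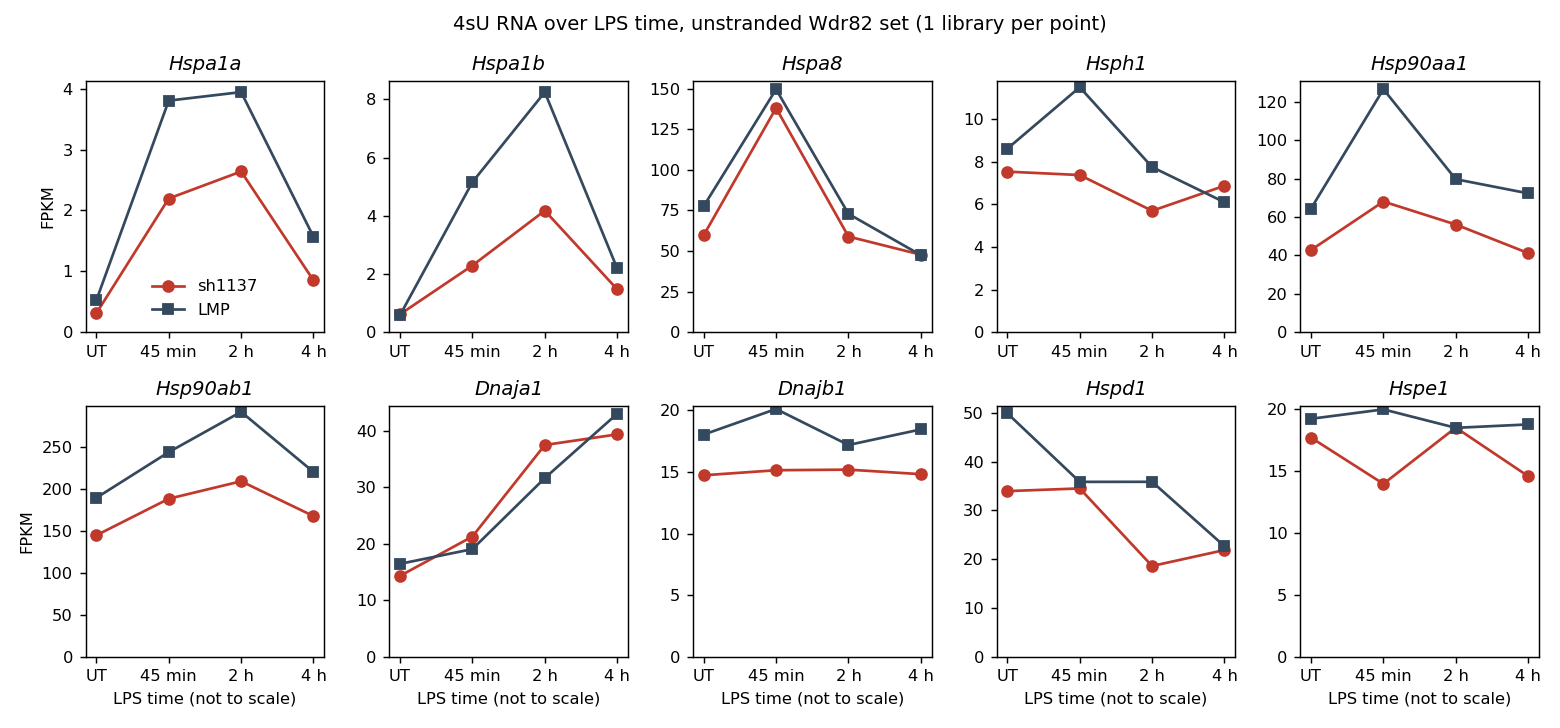
FPKM in 4sU RNA (vertical axis, from 0) against LPS time (categories, not to scale) in the unstranded set, 1 library per point, circles for sh1137 and squares for LMP. Hspa8 and Hsp90aa1 are highest at 45 min, Hspa1a and Hspa1b at 2 h, and Dnaja1 at 4 h. The 45 min and 2 h values of Hspa1a in LMP cells lie close together.

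The stranded set sampled 1 h of LPS. Hspa1b had 2.19 FPKM at 1 h against 0.692 FPKM untreated in sh1137 cells, and 4.58 FPKM against 0.941 FPKM in LMP cells. Hspa1a had 0.687 FPKM at 1 h against 0.297 FPKM untreated in sh1137 cells, and 3.40 FPKM against 1.10 FPKM in LMP cells. By FPKM + 1, 0 of the 9 tested genes were at least 2-fold higher in sh1137 cells (4.47% of all genes), and 2 of 10 in LMP cells (4.22%). On that scale the log2 ratio of Hspa1b in sh1137 cells was 0.91, although its FPKM more than doubled. Hspa8 had 141 FPKM at 1 h against 159 FPKM untreated in sh1137 cells, and 202 FPKM against 189 FPKM in LMP cells, so neither pair approached the ratio seen at 45 min in the other sets. Hsp90aa1 had 90.9 FPKM at 1 h against 77.3 FPKM untreated in sh1137 cells, and 212 FPKM against 139 FPKM in LMP cells. Dnaja1 was not higher at 1 h, with 31.5 FPKM against 37.1 FPKM in sh1137 cells, and 26.7 FPKM against 28.6 FPKM in LMP cells.

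Over all 14 LPS comparisons, 33 of 138 tested values were at least 2-fold from untreated, 32 of them higher, where the share of all genes in a comparison ranged from 7.97% to 32.7%. Hspa1b gave 11 of the 32 higher values and Hspa1a 10, Dnaja1 5, Hspa8 4 and Hsp90aa1 2. All 5 Dnaja1 values came from the unstranded 4sU and polyA sets. Hsph1, Hsp90ab1, Dnajb1 and Hspe1 gave none. The deposited bounds were apart in 11 of the 33, all in Hspa1a or Hspa1b. Both were apart in the Set1a+Set1b set in hairpin cells (bounds apart and higher in 2.3% of all genes) and scrambled cells (2.04%), in Pnuts sh cells (2.06%) and in polyA RNA of LMP cells (3.04%). Hspa1b alone was apart in LMP cells of the unstranded set at 45 min (0.319%) and 2 h (0.902%) and of the stranded set (0.996%).

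PolyA RNA, which holds mostly mature transcripts, was compared at 4 h. In sh1137 cells 1 of 10 genes was at least 2-fold higher after LPS (16% of all genes), and in LMP cells 4 (18.7% of all genes). Hspa1b had 6.11 FPKM at 4 h against 4.83 FPKM untreated in sh1137 cells, and 15.3 FPKM against 2.32 FPKM in LMP cells. Hspa1a had 4.73 FPKM against 3.17 FPKM in sh1137 cells, and 9.63 FPKM against 1.42 FPKM in LMP cells. For both genes the deposited bounds of the 4 h and untreated libraries overlapped in sh1137 cells and were apart in LMP cells (3.04% of all genes). The LPS log2 ratio of Hspa1b was 0.29 in sh1137 cells and 2.30 in LMP cells, a difference (sh1137 minus LMP) of -2.01, and that of Hspa1a was 0.46 and 2.14, a difference of -1.68, where the median gene differed by -0.04. With 1 library per condition these differences were not tested.

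Hsp90aa1 (-0.92), Dnajb1 (-0.85) and Dnaja1 (-0.68) had smaller differences in polyA RNA. Hsp90aa1 had 66.2 FPKM at 4 h against 46.7 FPKM untreated in sh1137 cells, and 71.0 FPKM against 26.1 FPKM in LMP cells, so the vectors differed before LPS more than after it. Dnaja1 had 17.3 FPKM against 7.86 FPKM in sh1137 cells, and 26.6 FPKM against 7.33 FPKM in LMP cells. Dnajb1 had 13.0 FPKM against 14.6 FPKM in sh1137 cells, and 20.3 FPKM against 12.1 FPKM in LMP cells. Hsph1 was below its untreated level with either vector (9.71 against 12.8 FPKM in sh1137 cells, 6.06 against 10.5 FPKM in LMP cells). The median gene was 0.13 (sh1137) and 0.17 (LMP) higher at 4 h.

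In untreated polyA RNA all 10 genes were higher with sh1137 than with LMP, where 43.7% of all genes were above 0. None reached 2-fold of FPKM + 1 (5.79% of all genes did). In FPKM alone Hspa1a (3.17 in sh1137, 1.42 in LMP cells) and Hspa1b (4.83 and 2.32) differed by more than 2-fold. The median of the 10 log2 ratios was 0.25, and that of all genes -0.05. The ratios were 0.82 for Hsp90aa1, 0.81 for Hspa1b, 0.79 for Hspa1a and 0.76 for Hspd1, and 0.05 to 0.26 for the other 6. At 4 h of LPS 3 were above 0 and 7 below, or 5 and 5 relative to the median gene (-0.10), and Hspa1b was at least 2-fold lower in sh1137 cells (-1.20; 2.99% of all genes). Several measures differed between these libraries. Summed macrophage markers stood at 1943 FPKM in sh1137 and 3478 FPKM in LMP untreated cells, and at 12338 FPKM in sh1137 and 7533 FPKM in LMP cells at 4 h. Summed lymphocyte markers stood at 39.0 FPKM in sh1137 and 115 FPKM in LMP untreated cells, and at 28.3 FPKM in sh1137 and 75.2 FPKM in LMP cells at 4 h. The 4 h libraries had 0.328 (sh1137) and 0.299 (LMP) of the depth of the deepest library of the set. The part of these measures in the result was not tested.

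**Figure D3:**
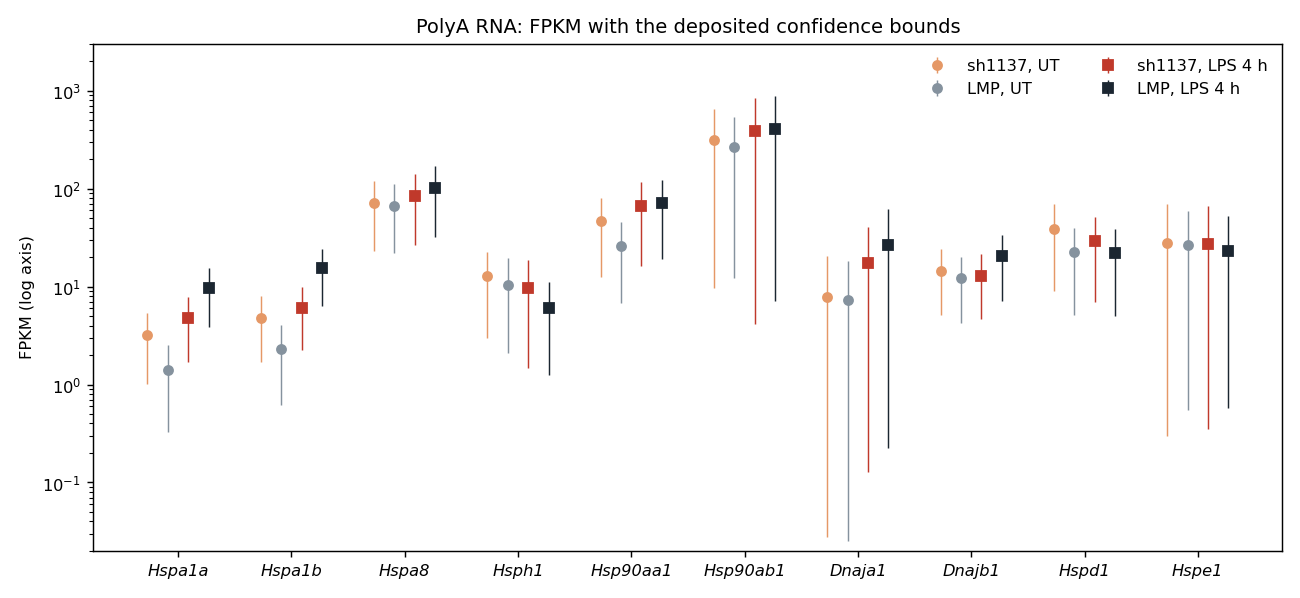
FPKM (vertical, log axis) of each gene (horizontal axis) in the 4 polyA libraries, with the deposited confidence bounds as bars, sh1137 left of LMP for each treatment. Hspa1a and Hspa1b reach 9.63 and 15.3 FPKM in LMP cells at 4 h of LPS, against 4.73 and 6.11 FPKM in sh1137 cells.

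In 4sU RNA, 9 of the 10 genes did not pass the test of sh1137 against its controls, and the 1 call, Hspa1b, was lost when any 1 set was left out. For the test, the sh1137 ratios of the unstranded set (4 times), the stranded set (untreated and 1 h) and the DRB set (without DRB) were averaged to 1 value per set, and limma was fitted to the 3 values over 12530 genes. Of the 10 genes 1 was called lower and 0 higher, against 5.45% of all genes lower and 6.9% higher, so the share called is near that of all genes. The mean ratio was below 0 for 8 of 10, and the median was -0.26, against -0.01 for all genes. At an unadjusted p under 0.05 there were 4 of 10, and 32.5% of all genes.

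Hspa1b was the gene called, with set means of -0.52, -0.50 and -0.55 (mean -0.52 ± 0.11 SE, lower in 3 of 3 sets; limma adjusted p = 0.0438). The call did not hold without any 1 of the sets (adjusted p from 0.0939 to 0.223), where without the unstranded or the stranded set 3 and 4 genes in all were called. Hspa1a averaged -0.67 ± 0.17 (SE, 3 sets; adjusted p = 0.0586) and Hsp90aa1 -0.64 ± 0.16 (SE, 3 sets; adjusted p = 0.0616). Hsp90aa1 passed without the DRB set (adjusted p = 0.0367). Dnajb1 averaged -0.35 (adjusted p = 0.111), Hsp90ab1 -0.28 (adjusted p = 0.157), Hsph1 -0.23 (adjusted p = 0.206), Hspd1 -0.23 (adjusted p = 0.224) and Hspa8 -0.23 (adjusted p = 0.173). Dnaja1 (0.11, adjusted p = 0.508) and Hspe1 (0.05, adjusted p = 0.791) stood on the other side of 0.

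By single pairs, Hsp90aa1, Hsp90ab1 and Dnajb1 were lower with sh1137 in all 7 4sU pairs without DRB. This pattern was seen in 15.5% of the 11349 genes tested in every such pair. Hsp90aa1 had log2 ratios from -1.21 to -0.21 in these pairs. Hspa1a was lower in all 7 too, but is outside that share. It was below the filter in the untreated unstranded pair (0.311 FPKM in sh1137 and 0.524 FPKM in LMP cells). In the stranded set at 1 h Hsp90aa1 stood at 90.9 FPKM in sh1137 and 212 FPKM in LMP cells, and Hspa1a at 0.687 FPKM in sh1137 and 3.40 FPKM in LMP cells, with bounds apart (0.685% of all genes). These were the 2 of 10 genes at least 2-fold lower in FPKM + 1 in that pair (4.77% of all genes). Some low values differed by more than 2-fold in FPKM alone. An example is Hspa1b at 45 min in the unstranded set, with 2.29 FPKM in sh1137 and 5.15 FPKM in LMP cells. No gene of the 10 reached 2-fold of FPKM + 1 in the other sh1137 4sU pairs. There the share of all genes was 8.03% untreated, 11.6% at 45 min, 10.3% at 2 h and 10.8% at 4 h in the unstranded set, 11% untreated in the stranded set, and 9.34% with DRB and 6.05% without it in the DRB set. In the DRB set without DRB the ratios of Hsp90aa1 (-0.21), Hsp90ab1 (-0.04) and Hspa8 (-0.10) were smaller than in the unstranded and stranded set means. The DRB set had a scrambled control and 45 min of LPS only. The unstranded and stranded sets had LMP and included untreated cells, and the part of these differences was not tested.

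Among the other chaperone genes the sh1137 fit, which called 5.45% of all genes lower, called 1 of 20 co-chaperones lower. This was Ahsa1, the activator of the Hsp90 ATPase (-0.65, limma adjusted p = 0.0405). The fit also called 1 of 8 mitochondrial genes lower (Trap1, the mitochondrial Hsp90, -0.45, limma adjusted p = 0.0412). Of 14 ER genes 1 was called lower (Hyou1, -0.41, limma adjusted p = 0.0482). No gene of the 16 other Hsp70, Hsp110 and J-domain genes, the 8 CCT subunits or the 1 small heat shock gene was called. Hsf1 (-0.27), Hsf2 (-0.37) and Hsbp1 (0.29) were not called either. The list medians were -0.05 for co-chaperones, -0.09 for the other Hsp70, Hsp110 and J-domain genes and -0.12 for the small heat shock gene. They were -0.14 for mitochondrial genes, -0.20 for ER genes and -0.27 for both CCT subunits and the heat shock factor list with Hsbp1.

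The Set1a+Set1b hairpins and the hairpin labelled Pnuts gave another arrangement. Hspa1a, Hspa1b and Dnaja1 were higher in the hairpin library of all 4 pairs (21.7% of all genes were), and Hsp90aa1, Hsp90ab1 and Dnajb1 lower in all 4 (17.4% of all genes). In the Set1a+Set1b set Hspa1a stood at 1.44 FPKM untreated and 7.28 FPKM at 45 min in hairpin cells, against 0.869 and 4.48 FPKM in scrambled cells. Hspa1b stood at 2.08 and 8.12 FPKM in hairpin cells, against 1.66 and 5.13 FPKM in scrambled cells. Hsp90aa1 stood at 76.6 and 135 FPKM in hairpin cells, against 97.1 and 160 FPKM in scrambled cells. Neutrophil markers summed to 33.2 FPKM untreated and 39.1 FPKM at 45 min in hairpin cells, against 7.88 and 11.4 FPKM in scrambled cells. Macrophage markers summed to 5747 and 8909 FPKM in hairpin cells, against 3385 and 5132 FPKM in scrambled cells. Their part in the result was not tested. None of the 10 reached 2-fold in either pair of this set (5.25% of all genes untreated and 6.83% at 45 min).

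In the Pnuts set Hspa1a stood at 4.00 FPKM untreated and 20.2 FPKM at 45 min in cells labelled Pnuts sh, against 2.12 and 5.86 FPKM in scrambled cells. Hspa1b stood at 5.57 and 24.3 FPKM in Pnuts sh cells, against 3.12 and 7.27 FPKM in scrambled cells. These were the highest values of both genes in the 28 libraries. At 45 min their hairpin log2 ratios were 1.63 and 1.61, with bounds apart (1% of all genes higher by that rule), and they were the 2 of 10 genes at least 2-fold higher (6.65% of all genes). Hsp90aa1 stood at 37.1 FPKM untreated and 116 FPKM at 45 min in Pnuts sh cells, against 82.8 and 141 FPKM in scrambled cells, and its untreated ratio of -1.14 made it the 1 gene at least 2-fold lower (2.89% of all genes).

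The LPS ratios at 45 min in Pnuts sh cells exceeded those in scrambled cells by 0.95 for Hspa1a, 0.94 for Hspa1b, 0.85 for Hsp90aa1, 0.52 for Dnaja1 and 0.46 for Hspa8, where the median gene differed by 0.06. LPS gave 4 of 10 genes at least 2-fold higher in Pnuts sh cells (8.41% of all genes), and 3 in scrambled cells (5.68%). For comparison, Set1a+Set1b hairpin cells had 3 (6.17%) and their scrambled controls 2 (5.56%). Macrophage markers summed to 7166 FPKM untreated and 9727 FPKM at 45 min in Pnuts sh cells, against 3382 and 5093 FPKM in scrambled cells. Neutrophil markers summed to 10.9 and 6.99 FPKM in Pnuts sh cells, against 24.1 and 29.0 FPKM in scrambled cells, and the Pnuts sh 45 min library had 0.543 of the depth of the deepest library of its set. Their part in the result was not tested, and none of these differences has a replicate.

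Over all 14 hairpin pairs 6 of 137 tested values were at least 2-fold from control in FPKM + 1, 2 higher and 4 lower. The share of all genes in a pair ranged from 5.25% to 12.7%. The values were those named above for Hspa1a, Hspa1b and Hsp90aa1. Without the Pnuts set 3 remained, all lower. Dnajb1 was lower with the hairpin in 13 of 14 pairs, the exception being untreated polyA RNA, although no Dnajb1 ratio reached 2-fold (-0.72 to 0.25).

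**Figure D4:**
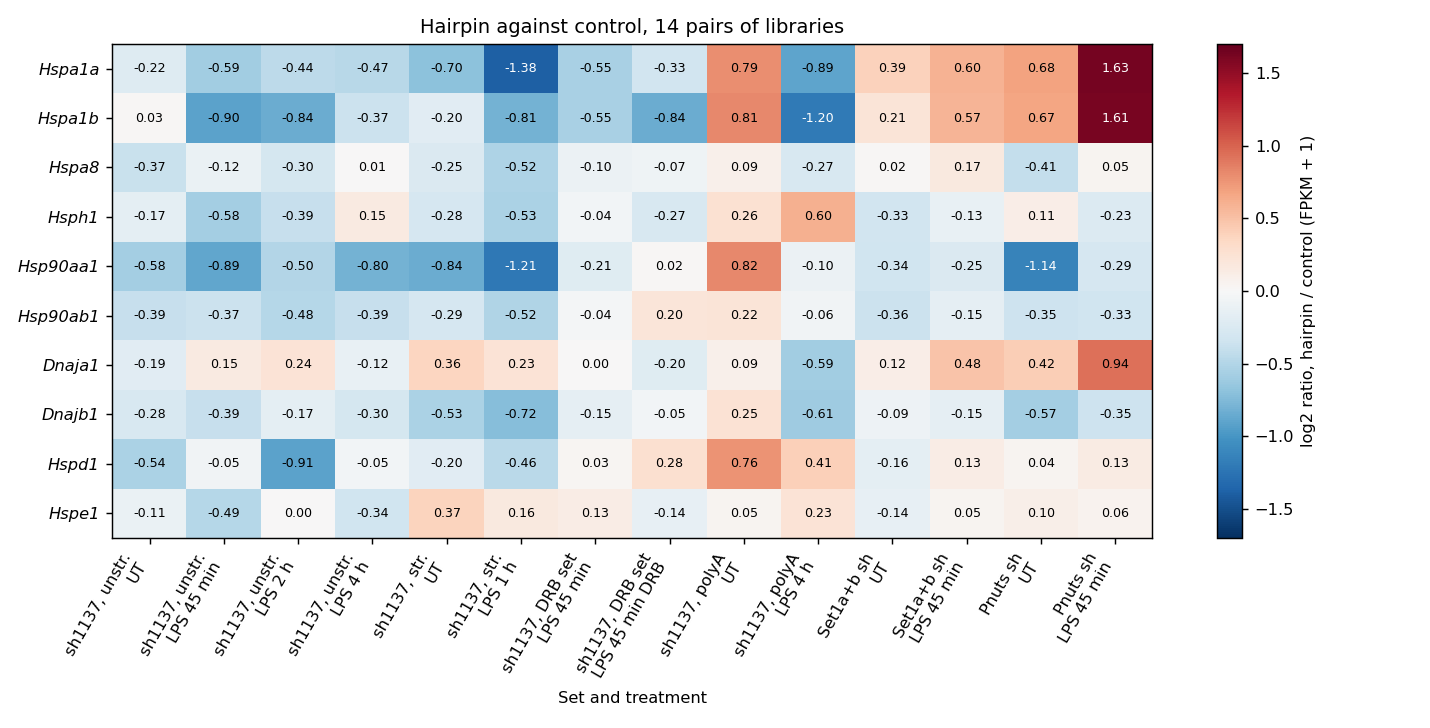
Log2 ratio of FPKM + 1, hairpin over control, for each gene (rows) in the 14 pairs (columns, by set and treatment), red for higher and blue for lower in the hairpin library. Hspa1a and Hspa1b are below 0 in most sh1137 4sU pairs and above 0 in the untreated polyA, Set1a+Set1b and Pnuts pairs.

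DRB was compared with no DRB at 45 min of LPS. Dnaja1 was the 1 gene of 10 at least 2-fold lower, in sh1137 cells (15.9% of all genes) and in scrambled cells (16% of all genes). It stood at 6.51 FPKM with DRB against 20.4 FPKM without in sh1137 cells, and at 7.65 FPKM against 20.3 FPKM in scrambled cells. Its log2 ratios were -1.51 in sh1137 and -1.30 in scrambled cells, and no gene reached 2-fold higher (13.7% and 16.7% of all genes). The deposited bounds of the DRB and no DRB libraries overlapped for all 10 genes (they were apart in 2.91% of all genes in sh1137 cells and 3.62% in scrambled cells).

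The median gene was itself 0.18 (sh1137) and 0.16 (scrambled) higher with DRB, and 7 of the 10 genes lay below it with each vector. The median of the 10 ratios was -0.18 in sh1137 and -0.32 in scrambled cells. Dnajb1 stood at 9.08 FPKM with DRB against 16.5 FPKM without in sh1137 cells, and at 9.41 FPKM against 18.5 FPKM in scrambled cells; relative to the median gene its ratio in scrambled cells was -1.06. Hspa8 stood at 124 FPKM against 191 FPKM in sh1137 cells, and at 129.7 FPKM against 205 FPKM in scrambled cells. Hsp90ab1 was higher with DRB, at 311 FPKM against 199 FPKM in sh1137 cells, and 271 FPKM against 204 FPKM in scrambled cells. Hsph1 and Hspe1 were also higher with DRB in both, relative to the median gene too. Hspa1b in scrambled cells had a ratio of 0.01, which is -0.15 relative to the median gene. These values are levels of labelled RNA, not rates.

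**Figure D5:**
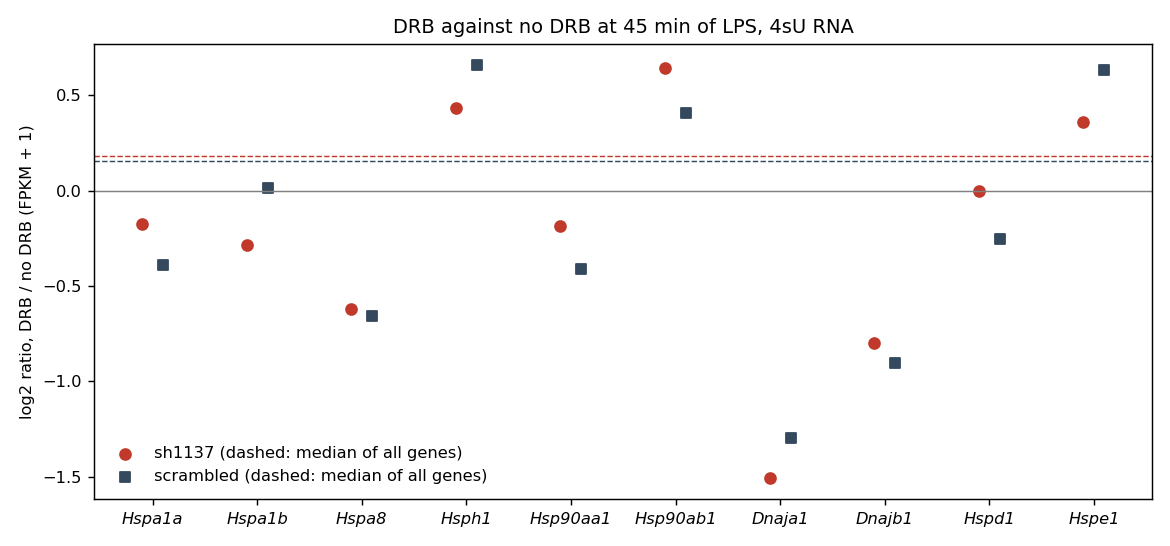
Log2 ratio of FPKM + 1, DRB over no DRB at 45 min of LPS (vertical axis), for each gene (horizontal axis), circles for sh1137 and squares for scrambled cells, 1 pair each, with dashed lines at the median of all genes. Dnaja1 lies lowest in both vectors (-1.51 and -1.30).

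Across the 28 libraries the 10 genes did not vary as 1 unit. After log2(FPKM + 1) values were centred within each set, Hspa1a and Hspa1b had a Pearson r of 0.96, Hspa8 and Hsp90aa1 of 0.75, and Hsp90aa1 and Hsp90ab1 of 0.73. Dnaja1 and Hsph1 had an r of -0.75, and Hspd1 and Hspe1, which share a locus, of -0.06. These values describe libraries that share cells, treatments and depth, and carry no p. Among 10335 genes with a mean of at least 5 FPKM, those most like the mean of the 10 genes were Clec5a (r 0.93), Gm12346 (0.91), Kpna1 (0.91), Gm9781 (0.91), Rtn4 (0.90) and Hnrnpc (0.89). Among the 8 of the 10 genes that reached this level, each of them part of that mean, r was 0.88 for Hsp90aa1, 0.76 for Hspa8 and 0.67 for Hsp90ab1, against 0.05 for Hsph1 and -0.23 for Hspe1. Hspa1a and Hspa1b were below the mean level asked for and so were not ranked, although their wide range weighs most in the mean.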

How the data were processed

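The authors deposited 6 tables of FPKM with confidence bounds and a status per gene, and, per the submitters' processing notes, used Cuffdiff 2.1.1, Cufflinks 2.1.1, TopHat 1.3.1 and mm9. How libraries were scaled, which gene annotation was used and what level the bounds have is not given in the sources. Read numbers are not in the tables, so depth is unknown and counting errors could not be given; relative depth within a set was derived from the files. Groups, vectors and LPS times follow the sample labels. Each condition has 1 library per set, and the sets have no stated separate cultures, so p-values measure only the spread between sets.

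Ratios were log2 of FPKM + 1 (pseudocount 1), within a table. In a pair, a gene was tested at 1 FPKM or more in either library with status OK, and called at 2-fold; pairs have no p. Limma 3.58.1 (R 4.3.3, Python 3.11.15) was fitted to 3 set ratios across all genes (FPKM of at least 1 in a library of each set), with Benjamini-Hochberg adjustment and an intensity trend, and was tested on simulated data. Hspa1a and Hspa1b could pass filters through 1 group only. Genes named beyond the 10 are at most 4 per list and comparison, by size of ratio at 5 FPKM or more, and the 6 most alike by correlation; where a count covers 5 or fewer genes, these were named too, chosen after their values were seen. Lists were heat shock factors with Hsbp1, cytosolic co-chaperones, other Hsp70, Hsp110 and J-domain genes, and small heat shock genes. The rest were CCT, mitochondrial and ER genes. The 10 genes and the lists were chosen with earlier results of these data known. Promoters came from RefSeq (GRCm38.p6), and no coordinates were converted between builds. Alternatives were another pseudocount, other filters, centring, deposited bounds, no trend, leaving out a set, averaging vectors, and the 4 unstranded times as repeats.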

Additional observations from a re-analysis of the deposited data

Results flagged for a closer look

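In untreated cells, 6 of 8 tested genes had a sh1137 to control ratio above 0 in polyA RNA and below 0 in both 4sU sets. The polyA log2 ratios were 0.82 for Hsp90aa1, 0.76 for Hspd1, 0.26 for Hsph1, 0.25 for Dnajb1, 0.22 for Hsp90ab1 and 0.091 for Hspa8. The 4sU ratios ran from -0.84 to -0.58 for Hsp90aa1, -0.54 to -0.20 for Hspd1, -0.28 to -0.17 for Hsph1, -0.53 to -0.28 for Dnajb1, -0.39 to -0.29 for Hsp90ab1 and -0.37 to -0.25 for Hspa8. Of 11413 genes, 17.1% were above 0 in polyA RNA and below 0 in both 4sU sets. The difference was not tested, since there was 1 polyA pair.

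At 45 min of LPS, 3 of 10 genes had a hairpin ratio above 0 in both the Set1a+Set1b and the Pnuts sets and below 0 in both Wdr82 sets with that time. The mean of the Set1a+Set1b and Pnuts ratios was 1.11 for Hspa1a, 1.09 for Hspa1b and 0.11 for Hspa8. The Wdr82 ratios were -0.59 to -0.55 for Hspa1a, -0.90 to -0.55 for Hspa1b and -0.12 to -0.10 for Hspa8. Relative to the median gene, the Hspa8 ratio in the Pnuts set was -0.04, so its direction flips with centring. Of 12051 genes, 5.86% had this pattern. The difference was not tested, and Hspa1a and Hspa1b share sequence. For the LPS ratio at 45 min, 0 of 10 genes lay above 0 in all 3 hairpin sets and below 0 in all 3 control sets or the reverse, as 0.957% of 11917 genes did.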

How the results depend on the processing

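No paired analysis was possible because each group has 1 library and the replicate number 1 only names it; the within-set ratios in both fits already set each library against the reference of its own set. No called value changed sign. Ratios near 0 did with centring: Hspa8 in the Pnuts pair at 45 min was -0.04 centred and 0.05 as reported, and Hspa1b with DRB in scrambled cells was -0.15 and 0.01. The 4 calls at 45 min of LPS ranged from 3 to 4 when a set was left out, and were 3 at 5 FPKM or more, 5 with both vectors averaged and 4 under the other settings. The sh1137 calls (1) were 0 without a filter or at 5 FPKM or more, 0 to 1 when a set was left out, and 2 with the 4 unstranded times as repeats (Hsp90aa1, adjusted p = 0.0160, and Hsp90ab1, adjusted p = 0.0169, in limma), where Hspa1b did not pass (adjusted p = 0.145). Leaving out the unstranded, stranded or DRB set gave 3, 4 or 1011 calls over all genes, against 1548. Hairpin pairs past 2-fold (6) were 13 with a pseudocount of 0.1 (4 higher, 9 lower; 8.78% to 17.9% of all genes in a pair), 3 by bounds apart, and 3 without the Pnuts set, an alternative chosen after seeing the data. LPS pairs (33) were 11 by bounds apart, 27 centred (8.02% to 32.5% of all genes), 23 at 5 FPKM or more (6.98% to 35.6%), 36 with a pseudocount of 0.1 (11.8% to 40.3%) and 26 without the Pnuts set. DRB pairs (2) were 0 by bounds apart and 3 centred (28.2% and 31.7% of all genes). The cause of these changes was not tested. Low FPKM of Hspa1a and Hspa1b limits their ratios.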
